A study of Mus musculus with 12 samples.

Results

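The genes described here are 102 long intergenic noncoding RNAs (lincRNAs) of mouse bone marrow-derived macrophages, cells grown from bone marrow precursors in the growth factor M-CSF. They are the genes with the biotype lincRNA in the deposited table that were selected on their counts alone, with at least 360 counts summed over all 12 RNA sequencing libraries. The table lists 5559 lincRNA genes, of which 1700 had at least 1 count. The members nearest the limit were Gm26617 with 360 counts, 9330104G04Rik with 362 and Gm26522 with 364, and just outside it lay 6720427I07Rik with 358, Zfp469 with 353 and 4732487G21Rik with 352. All 102 members passed the filter on low counts. For 27 of them the libraries outside the member's highest group averaged under 30 counts, the mean per library that 360 counts make. These are described below as entering mainly through 1 group, by counts not scaled for library size. Some lie just over the limit and, once scaled, hardly differed between groups, such as Gm26617 and Gm28901. These 2 averaged 28.1 and 29.0 counts outside their highest group. The highest group was LPS-treated Lyz2-Cre for 5 of the 27, untreated Lyz2-Cre for 17, LPS-treated Hdac3f/f for 0 and untreated Hdac3f/f for 5. The count minimum itself thus favours members that are lower with LPS, and members that are high in untreated Lyz2-Cre cells.

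There were 3 libraries in each of 4 groups. They were Lyz2-Cre-Hdac3f/f macrophages given lipopolysaccharide (LPS, an outer membrane molecule of bacteria that Toll-like receptor 4 detects) at 500 ng/ml for 4 h, untreated Lyz2-Cre-Hdac3f/f macrophages, Hdac3f/f macrophages given the same LPS treatment, and untreated Hdac3f/f macrophages. Both genotypes carry the floxed allele of Hdac3, which encodes a histone deacetylase of the NCoR and SMRT corepressor complexes. In the Lyz2-Cre-Hdac3f/f genotype, shortened to Lyz2-Cre in what follows, Cre recombinase is made from the Lyz2 locus, which is active in myeloid cells. The donors were 8 weeks old and all cultures held 10 ng/ml M-CSF. The labels do not say whether replicates are separate animals, so p-values measure the spread between these libraries, which may be technical.

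LincRNAs are transcripts that lie between protein-coding genes, are usually spliced and polyadenylated, and act as RNA, as precursors of small RNAs or through the act of their transcription. In macrophages several are induced together with inflammatory genes after Toll-like receptor signalling, through factors such as NF-kB and the interferon regulatory factors. Hdac3 acts at many of the same enhancers as a corepressor and, for part of the inflammatory programme, as a coactivator.

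Libraries held 16553432 to 18706990 counts, of which the members took 0.206% to 0.410%. Levels are given as CPM, the usual depth-scaled count unit of RNA sequencing, with library sizes adjusted by TMM for differences in RNA composition. Hdac3 itself had 37.9, 34.4 and 38.9 CPM in LPS-treated Lyz2-Cre libraries, 36.6, 33.1 and 35.1 CPM in untreated Lyz2-Cre libraries, 40.7, 39.1 and 38.7 CPM in LPS-treated Hdac3f/f libraries and 36.3, 39.2 and 39.7 CPM in untreated Hdac3f/f libraries. The gene total did not differ between genotypes beyond the spread (log2 fold change -0.09 ± 0.09 with LPS, adjusted p = 0.473, and -0.14 ± 0.09 without it, adjusted p = 0.352). A total over all exons does not show whether some exons were deleted, so the genotype rests on the labels. Lyz2 read 31.0 CPM in untreated Lyz2-Cre replicate 1 and 5181 to 7728 CPM in the other Lyz2-Cre libraries, against 9318 to 12351 CPM in Hdac3f/f libraries. Leaving that 1 library out gave 7 lincRNAs higher and 1 lower between genotypes without LPS, against 10 and 3 with all libraries (the comparison described below). The macrophage markers Csf1r, Adgre1 and Cd68 were high in all 12 libraries but not level between genotypes. With LPS, Csf1r and Adgre1 were called higher and Cd68 lower in Lyz2-Cre than in Hdac3f/f cells (log2 fold changes 0.36, 0.44 and -0.85). Mertk was called higher in Lyz2-Cre cells with and without LPS (0.42 and 0.58), and Fcgr1 lower with LPS (-0.81). The B cell markers summed to 0.0780 to 1.32 CPM. The stromal markers Col1a1, Col1a2, Col3a1 and Pdgfrb summed to 14.5 to 127 CPM in Lyz2-Cre libraries and 278 to 1654 CPM in Hdac3f/f libraries. The 5 T and NK cell markers summed to 11.1 to 26.3 CPM in Lyz2-Cre and 5.74 to 12.05 CPM in Hdac3f/f libraries. The 5 neutrophil markers summed to 13.6 to 64.7 CPM in untreated Lyz2-Cre and 115 to 198 CPM in untreated Hdac3f/f libraries, with LPS-treated ranges that overlap. Itgam read 47.5 to 76.1 CPM in Lyz2-Cre and 105 to 221 CPM in Hdac3f/f libraries. Some markers also run with LPS, among them 2 of the 4 tested neutrophil markers, 1 of the 5 T and NK cell markers and 1 of the 4 stromal markers. The macrophage markers Adgre1, Fcgr1 and Itgam were called higher with LPS in both genotypes. Their log2 fold changes were 0.77, 0.41 and 0.61 in Lyz2-Cre and 0.48, 1.55 and 0.70 in Hdac3f/f cells. In Lyz2-Cre cells the neutrophil sum was 79.7 to 284 CPM with LPS against 13.6 to 64.7 CPM without it, and the neutrophil genes S100a8 and Camp were called higher with LPS, by 2.33 and 3.13 on the log2 scale; in Hdac3f/f cells Camp was called higher by 1.85 and S100a8 was not called. The NK cell receptor gene Ncr1 was called higher with LPS by 1.57 in Lyz2-Cre and 1.67 in Hdac3f/f cells, and the stromal gene Pdgfrb by 4.17 and 2.44. These differences run with the genotype and LPS comparisons below, and their part in those results was not tested. In bulk libraries, fewer cells of a type and less RNA per cell cannot be told apart.

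A few sequences show what these transcripts carry. Mir155hg and Mir142hg are host genes whose processed product is a microRNA, and their mature sequences (RefSeq, build GRCm38.p6, inside the host on chromosomes 16 and 11) are given 5′ to 3′ with the seed, bases 2 to 8, in capitals. No seed is shared among them.
mmu-miR-155-5p: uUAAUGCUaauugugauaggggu
mmu-miR-155-3p: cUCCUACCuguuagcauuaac
mmu-miR-142a-5p: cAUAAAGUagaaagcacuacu
mmu-miR-142a-3p: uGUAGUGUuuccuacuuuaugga
For 5 members that rose with LPS in Hdac3f/f cells, 4 of them with a called difference in response between genotypes, the RefSeq promoter is printed (250 bases before the start and 50 after it, GRCm38.p6, 5′ to 3′ on the gene's strand). Capitals mark matches, on either strand, to 3 motifs: an NF-kB pattern (GGGA, any 4 bases, CC), an interferon response pattern (TTTC, any 2 bases, TTTC) and an AP-1 pattern (TGANTCA). The RefSeq start differs from that of the deposited table by 33 bases for Gm34643 and by 126 bases for 1110002J07Rik. Mir155hg, the fifth member with such a difference, has a RefSeq promoter window that lies 9856 bases from the table's start and holds no match to any of the 3 motifs, and it is not printed.
AW112010, chr19:11050517-11050816, minus strand: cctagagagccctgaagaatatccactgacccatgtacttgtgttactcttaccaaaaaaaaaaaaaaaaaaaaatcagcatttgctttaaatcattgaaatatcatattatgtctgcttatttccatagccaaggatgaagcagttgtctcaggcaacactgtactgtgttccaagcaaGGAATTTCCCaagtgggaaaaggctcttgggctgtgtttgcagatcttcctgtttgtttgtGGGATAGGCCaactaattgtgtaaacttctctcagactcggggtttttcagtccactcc
Gm34643, chr14:103012625-103012924, plus strand: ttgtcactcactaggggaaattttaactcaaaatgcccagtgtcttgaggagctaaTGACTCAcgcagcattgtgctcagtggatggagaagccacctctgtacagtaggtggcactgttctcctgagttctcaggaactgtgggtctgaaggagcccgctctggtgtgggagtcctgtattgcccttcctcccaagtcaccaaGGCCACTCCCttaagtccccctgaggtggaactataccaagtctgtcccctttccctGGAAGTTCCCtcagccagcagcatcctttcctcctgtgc
Gm7160, chr1:105990233-105990532, minus strand: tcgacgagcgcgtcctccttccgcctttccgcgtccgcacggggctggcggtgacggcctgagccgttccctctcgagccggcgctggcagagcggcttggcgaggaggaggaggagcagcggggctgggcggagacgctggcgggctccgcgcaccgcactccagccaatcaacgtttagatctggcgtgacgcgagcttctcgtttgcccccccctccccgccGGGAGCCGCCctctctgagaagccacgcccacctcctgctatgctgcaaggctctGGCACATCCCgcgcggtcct
1110002J07Rik, chr10:66920335-66920634, minus strand: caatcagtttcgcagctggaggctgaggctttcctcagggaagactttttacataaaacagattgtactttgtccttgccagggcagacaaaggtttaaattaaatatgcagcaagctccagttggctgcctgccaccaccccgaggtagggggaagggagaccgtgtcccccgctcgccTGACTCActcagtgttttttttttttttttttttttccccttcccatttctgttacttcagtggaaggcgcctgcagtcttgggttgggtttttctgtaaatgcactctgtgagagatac
Ptgs2os2, chr1:150164899-150165198, minus strand: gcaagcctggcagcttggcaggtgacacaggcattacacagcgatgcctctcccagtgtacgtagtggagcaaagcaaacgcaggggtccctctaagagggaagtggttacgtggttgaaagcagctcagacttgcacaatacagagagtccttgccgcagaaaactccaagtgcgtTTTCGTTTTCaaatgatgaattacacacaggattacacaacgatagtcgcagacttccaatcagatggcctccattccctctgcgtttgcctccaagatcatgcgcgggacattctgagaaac
AW112010, Gm34643 and Gm7160 each hold 2 matches to the NF-kB pattern, Gm34643 and 1110002J07Rik hold 1 AP-1 match each, and Ptgs2os2 holds 1 interferon response match. Of all 32851 mouse promoters in that RefSeq table, 20.73% hold the NF-kB pattern, 3.44% the interferon response pattern and 7.81% the AP-1 pattern. RefSeq promoters were found for 60 members (72 promoters, as a gene can have several). Among the 20 promoters of members higher with LPS in Hdac3f/f cells the shares were 30%, 15% and 15%. Among the 35 promoters of members lower with LPS they were 20%, 0% and 0%. For the 17 promoters of members not called in that comparison they were 17.6%, 5.9% and 17.6%. Some of the windows lie far from the table's start, such as 24449 bases for Gm13710 and 24221 bases for Gm34084. A match describes the letters in this window and not a bound site.

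The members spanned a wide range of levels. Their mean over the 12 libraries ran from 1.54 to 881 CPM with a median of 3.68 CPM; 6 members reached 100 CPM, 21 lay between 10 and 100 CPM and 75 between 1 and 10 CPM. The 5 with most counts, Malat1, Neat1, Gm26917, AW112010 and Xist, held 69.4% of all member counts. Per kilobase of the deposited gene length, the highest levels were those of AW112010 with 420.0 CPM per kilobase, Malat1 with 126, Gm26917 with 95.7, Gm36161 with 58.96 and Gm10076 with 48.3. Gene lengths ran from 269 to 20771 bases with a median of 2442.5. In the GENCODE M21 annotation all 102 members were found by identifier, 99 with the same coordinates as the table, which uses build mm10. They have a median of 3 merged exons, 19 members have a single one, and the 102 are spread over 20 chromosomes. Despite the biotype, 17 members overlap a protein-coding gene and 37 overlap some gene on the other strand; the strand setting of the counting is not given in the sources used here, so reads of such overlapping pairs cannot be told apart.

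**Figure D1:**
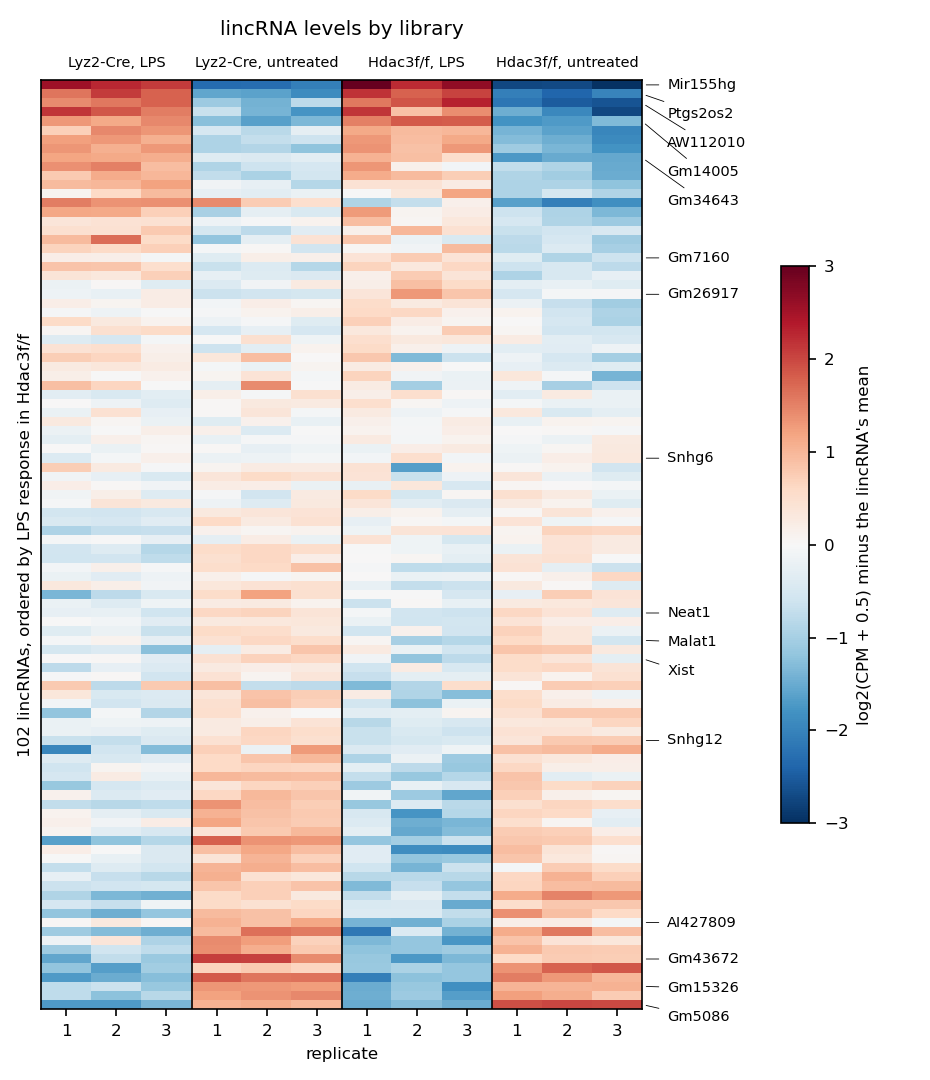
Levels of the 102 lincRNAs (rows, ordered by the log2 LPS response in Hdac3f/f cells) in the 12 libraries (columns), as log2(CPM + 0.5) minus the lincRNA's mean over libraries. The rows at the top, led by Mir155hg and Ptgs2os2, are red in the 6 LPS-treated libraries and blue in the 6 untreated ones, and the rows at the bottom, such as Gm15326 and Gm5086, show the opposite.

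After LPS more of these lincRNAs were called lower than higher, and the count minimum favours that order. In Lyz2-Cre cells 23 members (22.5%) were higher and 49 (48.0%) lower in LPS-treated than in untreated libraries, where 25.2% and 27.7% of all 14286 tested genes were called higher and lower. In Hdac3f/f cells 28 members (27.5%) were higher and 44 (43.1%) lower, against 28.0% and 32.1% of all tested genes. The median log2 fold change of the members was -0.51 in Lyz2-Cre cells and -0.34 in Hdac3f/f cells, beside -0.08 over all tested genes in both. Among the 75 members that did not enter through 1 group, 18 were higher and 32 lower in Lyz2-Cre cells, and 24 higher and 29 lower in Hdac3f/f cells. A gene was called at an adjusted p under 0.05 in edgeR's quasi-likelihood test (Benjamini-Hochberg over all tested genes). Changes of more than 1 on the log2 scale made up 17 of the higher and 36 of the lower calls in Lyz2-Cre cells, and 25 and 33 of them in Hdac3f/f cells. With library totals in place of TMM, which moves the median of all tested genes to -0.46 in Lyz2-Cre and -0.72 in Hdac3f/f cells, the counts were 16 higher and 58 lower in Lyz2-Cre cells and 20 higher and 58 lower in Hdac3f/f cells. The comparisons in the 2 genotypes share no library. Of the members called higher, 21 were called in both, which is 91.3% of the Lyz2-Cre list and 75.0% of the Hdac3f/f list, and of those called lower 41 were called in both, which is 83.7% of the Lyz2-Cre list and 93.2% of the Hdac3f/f list. Over all tested genes the overlap was 84.6% of the Lyz2-Cre list and 76.4% of the Hdac3f/f list for higher calls, and 83.4% and 71.9% for lower calls. No member was called in opposite directions.

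Among the immune lincRNAs, the 3 members of the list rose with LPS in both genotypes. Over all tested genes 25.2% were called higher in Lyz2-Cre and 28.0% in Hdac3f/f cells. The list was drawn up with earlier results of these data known, so this count is a description and not a test. Its other RNAs fell outside the set by biotype or count. AW112010 (chromosome 19, 11047617 to 11050566, minus strand, 4 exons) is annotated as noncoding but is known in mouse macrophages to be translated into a small protein during bacterial infection. It had 457, 512 and 580.1 CPM in LPS-treated Lyz2-Cre libraries against 79.9, 63.5 and 98.4 CPM in untreated ones, and 511, 633 and 852 CPM in LPS-treated Hdac3f/f libraries against 37.6, 29.8 and 28.02 CPM in untreated ones. Treated and untreated libraries were far apart in both genotypes, with a log2 fold change of 2.68 ± 0.21 (SE, n = 3 per group here and below; adjusted p = 2.56e-07) in Lyz2-Cre and 4.39 ± 0.23 (adjusted p = 3.63e-09) in Hdac3f/f cells. Ptgs2os2 (chromosome 1, 150159043 to 150164948, minus strand), known as lincRNA-Cox2 and a regulator of immune genes in mouse macrophages, averaged 8.8 ± 1.67 CPM with LPS and 0.315 ± 0.101 CPM without it in Lyz2-Cre cells (SD). In Hdac3f/f cells it averaged 9.897 ± 1.42 CPM with LPS and 0.0945 ± 0.0827 CPM without it, where the 3 untreated libraries held 6 counts in all. Its log2 fold changes were 4.77 ± 0.35 (adjusted p = 1.54e-07) in Lyz2-Cre and 6.6 ± 0.42 (adjusted p = 2.38e-08) in Hdac3f/f cells. Gm14005, named Morrbid in RefSeq, is known to prolong the life of mouse myeloid cells by repressing the neighbouring death gene Bcl2l11. It had 31.5, 27.9 and 34.6 CPM with LPS against 4.96, 3.65 and 4.58 CPM without it in Lyz2-Cre cells, and 36.3, 45.99 and 44.7 CPM against 3.25, 3.46 and 4.65 CPM in Hdac3f/f cells, again with no overlap.

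Of the microRNA host genes, Mir155hg (chromosome 16, 84703167 to 84715245, plus strand) showed the largest rises with LPS of any member in both genotypes. Its product miR-155, printed above, is induced by Toll-like receptor signalling and promotes inflammatory responses. It had 22.3, 18.4 and 16.3 CPM with LPS against 0.292, 0.311 and 0.448 CPM without it in Lyz2-Cre cells, and 36.97, 17.9 and 24.5 CPM with LPS against 0.0867, 0.0973 and 0 CPM without it in Hdac3f/f cells. It was thus close to undetected in every untreated library; in untreated Hdac3f/f cells it held 4 counts over 3 libraries, so the size of that fold rests on few reads. The log2 fold changes were 5.74 ± 0.35 (adjusted p = 2.61e-08) and 8.56 ± 0.44 (adjusted p = 3.53e-09) in Lyz2-Cre and Hdac3f/f cells. Mir142hg (chromosome 11), host of the blood cell microRNA miR-142, behaved differently: LPS-treated and untreated Lyz2-Cre libraries averaged 2.35 ± 0.136 and 2.68 ± 0.2303 CPM, and the log2 difference of -0.19 ± 0.30 did not pass (adjusted p = 0.627). In Hdac3f/f cells it averaged 3.61 ± 0.741 CPM with LPS and 1.76 ± 0.836 CPM without it, a rise of 1.03 ± 0.30 (adjusted p = 0.0101) whose call ended with library totals as the scale (0.37, adjusted p = 0.326); the difference between the genotypes in this response did not pass (adjusted p = 0.102).

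The other members with the largest rises carry clone names. AI504432 (chromosome 3) averaged 77.3 ± 16.2 CPM with LPS and 8.78 ± 3.71 CPM without it in Lyz2-Cre cells, and 62.5 ± 28.01 and 5.01 ± 2.27 CPM in Hdac3f/f cells. In Lyz2-Cre cells Gm1720, which reached the count minimum mainly through the LPS-treated Lyz2-Cre libraries, Gm26809 and Gm47242 completed the 8 largest rises, with log2 fold changes of 2.58 ± 0.48, 2.35 ± 0.20 and 2.04 ± 0.17. In Hdac3f/f cells 1110002J07Rik, Gm47242 and Gm26809 completed them, with 2.81 ± 0.22, 2.81 ± 0.18 and 2.75 ± 0.21. Bvht, the Braveheart RNA of mouse heart development, also rose in both genotypes, with 5.67, 5.37 and 7.21 CPM in LPS-treated and 3.45, 3.07 and 2.98 CPM in untreated Lyz2-Cre libraries and 4.72, 7.41 and 5.59 against 1.95, 2.87 and 3.43 CPM in Hdac3f/f libraries. With library totals as the scale its Hdac3f/f call ended (log2 fold change 0.47, adjusted p = 0.0602) and its Lyz2-Cre call held (adjusted p = 0.0344). Lncpint, a p53-induced RNA, read 0.61 ± 0.31 in Lyz2-Cre cells (adjusted p = 0.115) and was called higher in Hdac3f/f cells at 0.94 ± 0.32 (adjusted p = 0.0198), a call lost without LPS-treated Hdac3f/f replicate 1 or untreated Hdac3f/f replicate 2 or 3 (adjusted p = 0.0592 to 0.0879). Gm36161, among the highest members per kilobase, was called higher at 0.34 ± 0.10 in Lyz2-Cre and 0.47 ± 0.10 in Hdac3f/f cells, and with library totals as the scale its direction turned, to -0.047 in Lyz2-Cre and -0.17 in Hdac3f/f cells, neither of them called; the Lyz2-Cre call needed 1 library, as it ended without untreated Lyz2-Cre replicate 2 (adjusted p = 0.0651).

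Gm26917 (chromosome 17, 39843013 to 39846341, plus strand, 1 exon) lies at the copy of the ribosomal RNA precursor on that chromosome. It averaged 285 ± 50.7 CPM with LPS and 195 ± 8.39 CPM without it in Lyz2-Cre cells, and 536 ± 171 CPM with LPS and 258 ± 44.4 CPM without it in Hdac3f/f cells. It rose in both, by 0.55 ± 0.21 in Lyz2-Cre (adjusted p = 0.0401) and 1.05 ± 0.21 in Hdac3f/f cells (adjusted p = 0.000678), and the Lyz2-Cre call was lost without LPS-treated Lyz2-Cre replicate 3 or untreated Lyz2-Cre replicate 1, 2 or 3 (adjusted p = 0.0709 to 0.147). The next annotated gene on that strand, Gm42418, is listed at 0 counts in all 12 libraries, and genes with the rRNA biotype took 0.000303% to 0.000575% of counts, and the part of ribosomal RNA carried into the libraries was not tested.

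The largest falls were those of lincRNAs that are known here by clone names. Gm5086 (chromosome 13, 97559971 to 97583996, plus strand) had 2 counts over the 3 LPS-treated Lyz2-Cre libraries against 180 over the 3 untreated ones, a ratio of 71.0 (exact 95% interval 19.4 to 591, counting error only). In Hdac3f/f cells it had 0.0695, 0.156 and 0.0726 CPM with LPS and 5.68, 6.04 and 5.93 CPM without it, a log2 fold change of -5.81 ± 0.45 (adjusted p = 1.55e-07). Gm13391 averaged 0.645 ± 0.166 CPM with LPS against 9.83 ± 0.9595 CPM without it in Lyz2-Cre cells, and 0.693 ± 0.362 against 7.38 ± 1.42 CPM in Hdac3f/f cells. The other falls among the 8 largest in Lyz2-Cre cells ran from -2.94 ± 0.39 for Gm13710 through Gm15326, AU022793, 5031425F14Rik and Gm37168 to -3.84 ± 0.37 for Gm43672. Those in Hdac3f/f cells ran from -3.05 ± 0.51 for A130077B15Rik through 4933404O12Rik, Gm43672, Gm14461 and Gm15326 to -4.70 ± 0.53 for 5031425F14Rik. Of these, Gm5086 and Gm37168 reached the count minimum mainly through untreated Hdac3f/f libraries, and Gm15326, 5031425F14Rik, Gm43672, A130077B15Rik and 4933404O12Rik through untreated Lyz2-Cre libraries, so their falls describe how they were selected. The naming rule takes only changes whose libraries do not overlap within a genotype. Over all 102 members, called changes with overlapping libraries occurred in Hdac3f/f cells after LPS, for Malat1, Neat1, Xist, 1700020I14Rik and AI480526, and between genotypes with LPS for Gm37494.

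The abundant nuclear RNAs read lower with LPS but varied between libraries of 1 group. Both members of the nuclear body list and both of the X inactivation list were called lower in Hdac3f/f cells, and 3 of these 4 in Lyz2-Cre cells. Over all tested genes 32.1% were called lower in Hdac3f/f and 27.7% in Lyz2-Cre cells. Malat1, a component of nuclear speckles, had 795, 891 and 687 CPM with LPS and 1131, 1265 and 1198 CPM without it in Lyz2-Cre libraries, a log2 difference of -0.60 ± 0.29 that did not pass (adjusted p = 0.0958). In Hdac3f/f libraries it had 857, 417 and 459.8 CPM with LPS and 1257, 1045 and 564 CPM without it, where LPS replicate 1 exceeded untreated replicate 3, and fell by 0.73 (SE 0.29, adjusted p = 0.0428). That call was lost without LPS-treated Lyz2-Cre replicate 1 or 2, untreated Lyz2-Cre replicate 2 or 3, LPS-treated Hdac3f/f replicate 2 or 3 or untreated Hdac3f/f replicate 1 or 2 (adjusted p = 0.0532 to 0.176). Neat1, the scaffold of paraspeckles, fell in both genotypes, by 0.91 in Lyz2-Cre and 0.66 in Hdac3f/f cells on the log2 scale (adjusted p = 0.00422 and 0.0213), where the Hdac3f/f call was lost without LPS-treated Hdac3f/f replicate 2 or 3 or untreated Hdac3f/f replicate 1 or 2 (adjusted p = 0.0704 to 0.0979). Xist, the RNA that coats the inactive X chromosome, had 194, 198 and 151 CPM with LPS and 264, 309 and 296 CPM without it in Lyz2-Cre libraries, and 179.8, 84.5 and 111 and 281, 247 and 158 CPM in Hdac3f/f libraries. It was called lower in both, by 0.68 in Lyz2-Cre (adjusted p = 0.0374) and 0.87 in Hdac3f/f cells (adjusted p = 0.00944); the Lyz2-Cre call was lost without LPS-treated Lyz2-Cre replicate 1, 2 or 3, untreated Lyz2-Cre replicate 2 or 3 or LPS-treated Hdac3f/f replicate 3 (adjusted p = 0.0536 to 0.145). Xist was present in all 12 libraries, while Ddx3y, Eif2s3y, Kdm5d and Uty of the Y chromosome had 0 counts in each. The same libraries stood out for these RNAs within a group. Among LPS-treated Hdac3f/f libraries replicate 1 was highest for Malat1, Neat1 and Xist and lowest for Gm26917, which had 373, 715 and 520.1 CPM, and among untreated Hdac3f/f libraries replicate 3 was lowest for Malat1, Neat1 and Xist and highest for Gm26917, at 207, 281 and 286 CPM. What these libraries share was not tested. Ftx, which sits beside Xist and promotes its expression in mouse, fell as well, by 1.29 in Lyz2-Cre (adjusted p = 0.0298) and 1.65 in Hdac3f/f cells (adjusted p = 0.0136), at levels of 0.145 to 3.25 CPM; it reached the count minimum mainly through untreated Lyz2-Cre libraries. The Lyz2-Cre call was lost without LPS-treated Lyz2-Cre replicate 2 or 3 or untreated Lyz2-Cre replicate 2 or 3 (adjusted p = 0.0647 to 0.101), and the Hdac3f/f call without LPS-treated Hdac3f/f replicate 2 (adjusted p = 0.0529).

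Of the 4 members that host small nucleolar RNAs, which guide modification of ribosomal RNA, 3 were called lower with LPS in Lyz2-Cre and 1 in Hdac3f/f cells. The shares of all tested genes called lower were 27.7% and 32.1%. Snhg12 fell in both genotypes, with 3.98, 3.87 and 4.77 CPM in LPS-treated and 9.38, 10.4 and 9.502 CPM in untreated Lyz2-Cre libraries and 4.03, 4.44 and 4.72 against 8.68, 11.8 and 11.6 CPM in Hdac3f/f libraries. Snhg20 and Epb41l4aos fell in Lyz2-Cre cells by 1.15 and 0.93 (adjusted p = 0.000119 and 0.00133) and read -0.38 ± 0.17 and -0.25 ± 0.19 in Hdac3f/f cells, where neither passed (adjusted p = 0.078 and 0.274). The interaction was not called for either (adjusted p = 0.0765 and 0.146). Snhg6 was called in no comparison, at 14.5 ± 2.93 CPM in LPS-treated Lyz2-Cre, 14.1 ± 0.679 CPM in untreated Lyz2-Cre, 17.1 ± 4.44 CPM in LPS-treated Hdac3f/f and 16.97 ± 2.96 CPM in untreated Hdac3f/f cells. Norad, listed as 2900097C17Rik, which binds Pumilio proteins and guards genome stability, fell by 0.46 in Lyz2-Cre (adjusted p = 0.00738) and by 0.71 in Hdac3f/f cells (adjusted p = 0.000281).

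**Figure D2:**
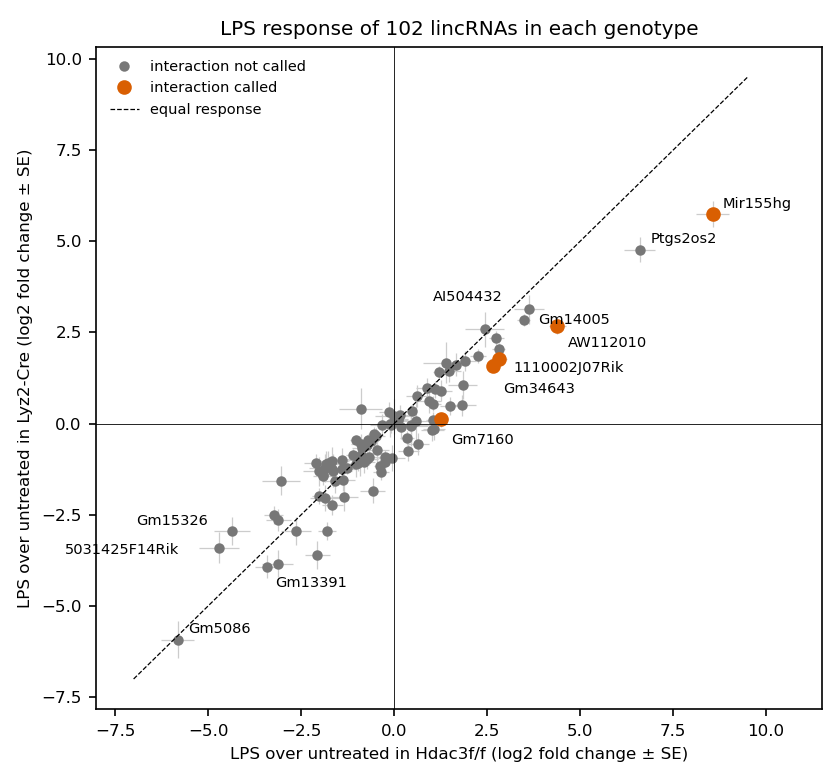
Log2 fold change of LPS-treated over untreated libraries, with SE, for the 102 lincRNAs in Hdac3f/f cells (x axis) and Lyz2-Cre cells (y axis); the dashed line marks equal responses and orange points the 5 members whose interaction was called. All 5 orange points lie below the line, with Mir155hg at 5.74 in Lyz2-Cre and 8.56 in Hdac3f/f cells.

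Without LPS, 10 members (9.80%) were higher and 3 (2.94%) lower in Lyz2-Cre than in Hdac3f/f cells, where 5.12% and 6.66% of all tested genes were called higher and lower. The members' median log2 difference was 0.34, beside 0.03 over all tested genes. The count minimum favours members high in untreated Lyz2-Cre cells, so this median and the number higher may partly describe the selection. Among the 75 members that did not enter through 1 group, 8 were higher and 2 lower. The 10 higher members were AW112010, Gm34643, 1110002J07Rik and Gm47242, which are also LPS-induced, together with Gm32089, Gm43672, AI427809, Gm46224, AU022793 and 9330175E14Rik. Of the called members, Gm43672 and AI427809 had entered mainly through untreated Lyz2-Cre libraries and Gm5086, a lower one, through untreated Hdac3f/f libraries. The count of higher members depended on single libraries: it was 16 without untreated Hdac3f/f replicate 1, 6 without replicate 2, 5 without replicate 3 and 6 without untreated Lyz2-Cre replicate 2. The count of lower members was 1 without untreated Hdac3f/f replicate 2 or 3, and 1 without untreated Lyz2-Cre replicate 1 or 3.

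Gm32089 (chromosome 13, 94289448 to 94295006, minus strand) had the largest genotype difference without LPS and was called with LPS too. With LPS it had 14.2, 12.4 and 12.7 CPM in Lyz2-Cre and 2.22, 2.57 and 5.15 CPM in Hdac3f/f libraries, a log2 fold change of 1.98 ± 0.31 (adjusted p = 0.000792). Without LPS it had 13.02, 8.05 and 6.72 CPM in Lyz2-Cre and 1.13, 0.7301 and 0.9205 CPM in Hdac3f/f libraries, a log2 fold change of 3.31 ± 0.35 (adjusted p = 0.000141). Every Lyz2-Cre library lay above every Hdac3f/f library. It overlaps the lincRNA Gm48102 on the other strand, so its reads may be shared with that gene.

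AI427809 (chromosome 4, 53261356 to 53270232, minus strand), named Mexis in RefSeq, is known in mouse macrophages to amplify the induction of the cholesterol exporter gene Abca1 by the nuclear receptor LXR. It was the only other member called higher in Lyz2-Cre cells both without and with LPS. With LPS the Lyz2-Cre libraries had 1.75, 2.196 and 1.76 CPM against 0.347, 0.312 and 0.653 CPM in Hdac3f/f libraries, a log2 fold change of 2.10 ± 0.31 (adjusted p = 0.000563). Without LPS the Lyz2-Cre libraries had 4.03, 3.56 and 4.43 CPM against 1.995, 2.09 and 1.64 CPM in Hdac3f/f libraries, a log2 fold change of 1.07 ± 0.24 (adjusted p = 0.0149), and this call was lost without untreated Lyz2-Cre replicate 3 or untreated Hdac3f/f replicate 3 (adjusted p = 0.063 to 0.0657). Abca1, its nearest coding gene, lies 101.46 kb away, just outside the 100 kb used for neighbours below, and is named here after its values were seen. It was higher in Lyz2-Cre cells too, by 1.06 ± 0.21 with LPS (adjusted p = 0.00288) and 1.03 ± 0.21 without it (adjusted p = 0.00867).

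Of the LPS-induced members, AW112010 was already higher in untreated Lyz2-Cre cells, at 80.6 ± 17.5 CPM against 31.8 ± 5.08 CPM in untreated Hdac3f/f cells (log2 fold change 1.34 ± 0.20, adjusted p = 0.0018). Gm34643 averaged 6.502 ± 0.296 CPM in untreated Lyz2-Cre and 2.53 ± 0.238 CPM in untreated Hdac3f/f cells (log2 fold change 1.36 ± 0.16, adjusted p = 0.000298), and in each case no library of 1 genotype overlapped the other. Gm43672, which LPS lowers, was also higher in untreated Lyz2-Cre cells, with 8.697, 8.59 and 5.32 CPM against 2.78, 3.21 and 3.12 CPM in Hdac3f/f cells (log2 fold change 1.31 ± 0.30, adjusted p = 0.0163), a call lost without untreated Lyz2-Cre replicate 1 or 2 or untreated Hdac3f/f replicate 2 or 3 (adjusted p = 0.0523 to 0.0633). The 3 lower members were Gm14461 at -1.05 ± 0.21, Gm5086 at -1.05 ± 0.28 and Gm38399 at -0.80 ± 0.19. The call was lost for Gm5086 without untreated Lyz2-Cre replicate 1, 2 or 3 or untreated Hdac3f/f replicate 2 or 3 (adjusted p = 0.0777 to 0.102). It was lost for Gm38399 without untreated Lyz2-Cre replicate 1 or 3 or untreated Hdac3f/f replicate 2 or 3 (adjusted p = 0.0567 to 0.0975).

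With LPS, 9 members (8.82%) were higher and 9 (8.82%) lower in Lyz2-Cre than in Hdac3f/f cells, against 15.7% and 16.9% of all tested genes, with a median of 0.03 for the members and 0.02 over all tested genes. With library totals as the scale, which moves the median of all tested genes to 0.29, the split was 17 higher and 3 lower. Without the members that entered through 1 group it was 4 higher and 8 lower: A130077B15Rik, Gm15326, D930016D06Rik and AI427809 entered mainly through untreated Lyz2-Cre libraries, Gm48065 through LPS-treated Lyz2-Cre libraries and Gm37168 through untreated Hdac3f/f libraries. The number higher was 22 without LPS-treated Hdac3f/f replicate 1, 3 without its replicate 3, and 3 and 4 without LPS-treated Lyz2-Cre replicates 1 and 2. The number lower was 4 without LPS-treated Hdac3f/f replicate 2, and 4 and 5 without LPS-treated Lyz2-Cre replicates 1 and 2. Gm38399, which overlaps the coding gene Nav1 on the same strand, was the member lower both with and without LPS; with LPS its call was lost without LPS-treated Lyz2-Cre replicate 2 or 3 or LPS-treated Hdac3f/f replicate 2 (adjusted p = 0.0772 to 0.105).

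The largest difference with LPS was that of A130077B15Rik (chromosome 10), which had 1.45, 2.25 and 0.627 CPM in Lyz2-Cre and 0.347, 0.468 and 0.145 CPM in Hdac3f/f libraries (log2 fold change 2.17 ± 0.53, adjusted p = 0.0095). Gm15326, D930016D06Rik, Gm37494 and Gm48065 were higher by 1.72 ± 0.59, 1.64 ± 0.48, 1.23 ± 0.42 and 0.78 ± 0.26. The call was lost for Gm15326 without LPS-treated Lyz2-Cre replicate 1 or 2, untreated Lyz2-Cre replicate 1, 2 or 3, LPS-treated Hdac3f/f replicate 1 or 3 or untreated Hdac3f/f replicate 2 (adjusted p = 0.0512 to 0.136). For D930016D06Rik it was lost without LPS-treated Lyz2-Cre replicate 1 or LPS-treated Hdac3f/f replicate 2 or 3 (adjusted p = 0.0538 to 0.08), and for Gm48065 without LPS-treated Lyz2-Cre replicate 1, 2 or 3 or LPS-treated Hdac3f/f replicate 2 or 3 (adjusted p = 0.0664 to 0.108). 1700020I14Rik, named Oip5os1 in RefSeq and known as Cyrano, the RNA that directs decay of miR-7, averaged 39.3 ± 5.73 CPM in Lyz2-Cre and 24.9 ± 5.06 CPM in Hdac3f/f libraries (log2 fold change 0.66 ± 0.18, adjusted p = 0.0174), a call lost without LPS-treated Lyz2-Cre replicate 1 or 2 or LPS-treated Hdac3f/f replicate 2 or 3 (adjusted p = 0.052 to 0.0706). Among the lower ones, Gm37168 read -1.73 ± 0.45, Epb41l4aos -1.08 ± 0.20, Gm26917 -0.91 ± 0.21 and Snhg20 -0.62 ± 0.18. The calls were lost for Gm37168 without LPS-treated Lyz2-Cre replicate 2 (adjusted p = 0.0517) and for Snhg20 without LPS-treated Lyz2-Cre replicate 1 or 3 or LPS-treated Hdac3f/f replicate 2 (adjusted p = 0.0584 to 0.0744). Gm14005 (Morrbid), at 31.3 ± 3.39 CPM in Lyz2-Cre and 42.3 ± 5.28 CPM in Hdac3f/f libraries, read -0.43 ± 0.15 (adjusted p = 0.0458), and this call was lost without LPS-treated Lyz2-Cre replicate 1 or 2, untreated Lyz2-Cre replicate 1 or 3, LPS-treated Hdac3f/f replicate 2 or 3 or untreated Hdac3f/f replicate 2 (adjusted p = 0.0521 to 0.163).

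Chromosome 10 carries Lyz2, and so the Cre insertion. It holds 6 members, of which 2 were called between genotypes with LPS and 2 others without it, all higher in Lyz2-Cre cells. A130077B15Rik and Gm48065, called with LPS, lie 5.28 and 72.7 Mb from Lyz2, and 1110002J07Rik and Gm46224, called without it, 50.4 and 65.7 Mb. The Gm46224 call (log2 fold change 0.93 ± 0.26, adjusted p = 0.0389) was lost without LPS-treated Lyz2-Cre replicate 1, 2 or 3, untreated Lyz2-Cre replicate 1, 2 or 3, LPS-treated Hdac3f/f replicate 3 or untreated Hdac3f/f replicate 2 or 3 (adjusted p = 0.0528 to 0.151). Of 684 tested genes on that chromosome 30.7% were called with LPS and 12.6% without it, in either direction. Over all tested genes 15.7% were higher and 16.9% lower with LPS, and 5.12% higher and 6.66% lower without it. The part of the chromosome around the insertion in these differences was not tested.

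**Figure D3:**
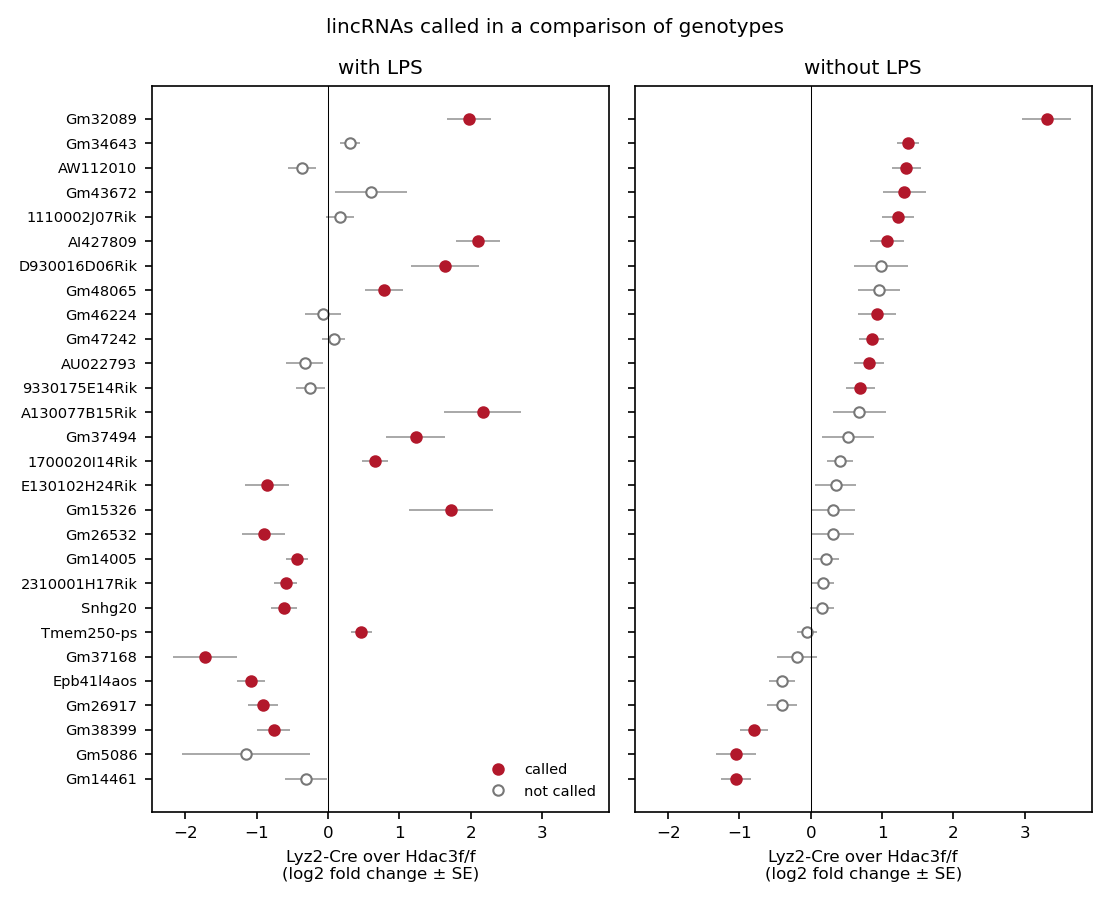
Log2 fold change of Lyz2-Cre over Hdac3f/f libraries, with SE, with LPS (left) and without it (right), for the 28 lincRNAs called in either comparison; filled points were called. Gm32089 and AI427809 were called higher in both panels and Gm38399 lower in both.

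The interaction is the LPS response in Lyz2-Cre minus that in Hdac3f/f cells. It was called below 0 for 5 members (4.90%) and above 0 for none, where 5.54% of all tested genes were called below and 2.58% above; at an unadjusted p under 0.05, 24 members (23.5%) lay below 0 and 4 (3.92%) above, beside 12.7% and 10.1% of all tested genes, and DESeq2's Wald test called 14 members (13.7%) below and 0 above, beside 8.37% and 4.17% of all tested genes. The count of 5 ranged from 2 to 9 when each library was left out in turn, and library totals as the scale gave 2 below and 2 above. For AW112010 the interaction was -1.71 ± 0.28 (adjusted p = 0.00386, at most 0.018 over 17 other settings). Its untreated level was higher in Lyz2-Cre cells while the LPS-treated levels, 516 ± 61.8 CPM in Lyz2-Cre and 665 ± 173 CPM in Hdac3f/f cells, did not differ beyond the spread (-0.37 ± 0.20, adjusted p = 0.167). Gm34643 (chromosome 14, 103012908 to 103024457, plus strand) had 20.3, 19.5 and 18.9 CPM with LPS and 6.46, 6.23 and 6.82 CPM without it in Lyz2-Cre libraries, and 18.3, 16.6 and 12.6 CPM and 2.26, 2.68 and 2.66 CPM in Hdac3f/f libraries. Its interaction of -1.06 ± 0.21 (adjusted p = 0.00981) stayed called in all 17 settings, with an adjusted p of at most 0.0409. The lincRNA 4933432I03Rik overlaps Gm34643, so reads may be shared.

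The other 3 interactions were less firm, each called in 5 or 6 of 17 other settings. Mir155hg had an interaction of -2.82 ± 0.77 (adjusted p = 0.0419; 0.000941 to 0.11 over the settings), and it rests on the few untreated counts given above. That call was lost without LPS-treated Lyz2-Cre replicate 1, 2 or 3, untreated Lyz2-Cre replicate 1, 2 or 3, LPS-treated Hdac3f/f replicate 3 or untreated Hdac3f/f replicate 1, 2 or 3 (adjusted p = 0.0577 to 0.11). Gm7160 (chromosome 1, 105979350 to 105990282, minus strand) had 7.54, 7.45 and 6.21 CPM with LPS and 4.96, 7.34 and 7.26 CPM without it in Lyz2-Cre libraries, which overlapped, and 8.82, 11.4 and 8.85 CPM against 4.94, 3.21 and 4.04 CPM in Hdac3f/f libraries, which did not. Its interaction was -1.13 ± 0.29 (adjusted p = 0.0334; 0.00477 to 0.0957 over the settings), and the call was lost without LPS-treated Lyz2-Cre replicate 1, 2 or 3, untreated Lyz2-Cre replicate 2 or 3, LPS-treated Hdac3f/f replicate 2 or 3 or untreated Hdac3f/f replicate 2 or 3 (adjusted p = 0.0628 to 0.0918). For 1110002J07Rik it was -1.06 ± 0.30 (adjusted p = 0.0491; 0.00568 to 0.134), and the call was lost without LPS-treated Lyz2-Cre replicate 1, 2 or 3, untreated Lyz2-Cre replicate 1 or 3, LPS-treated Hdac3f/f replicate 1, 2 or 3 or untreated Hdac3f/f replicate 2 or 3 (adjusted p = 0.0507 to 0.122).

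**Figure D4:**
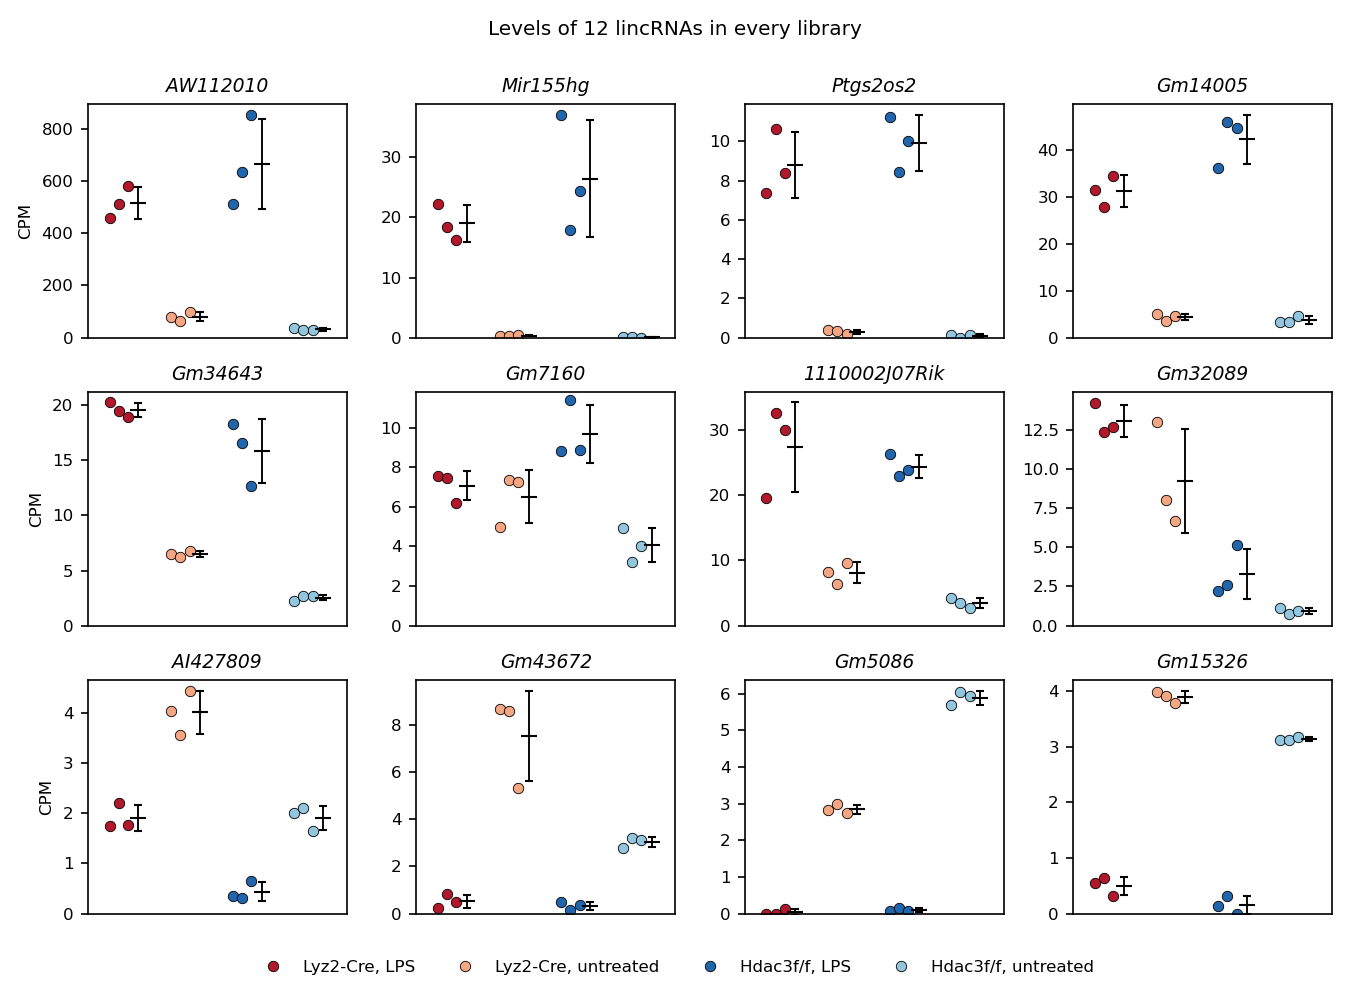
CPM of 12 lincRNAs in each of the 12 libraries, with the mean and SD of the 3 libraries of each group beside the points; every axis starts at 0. The 2 left groups of each panel are Lyz2-Cre and the 2 right ones Hdac3f/f, and untreated Lyz2-Cre libraries of AW112010, Gm34643, Gm32089 and AI427809 lie above untreated Hdac3f/f libraries.

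LincRNAs are often compared with the coding gene beside them, since transcription of neighbours can be shared or opposed. By the table's coordinates the nearest protein-coding gene lay within 100 kb for 92 members and was tested for 76 of them; the median gap over all members was 5.67 kb and 11 pairs start back to back within 2000 bases. After LPS both partners were called in 37 pairs in Lyz2-Cre cells, 26 the same way and 11 opposite ways, and in 37 pairs in Hdac3f/f cells, again 26 the same way and 11 opposite. That is 48.7% of the 76 pairs in each genotype, with 70.3% of the called pairs the same way. Among 8889 tested coding genes whose nearest other coding gene lay within 100 kb and was tested, both were called in 32.9% in Lyz2-Cre and 41.7% in Hdac3f/f cells, of which 64.5% and 65.0% moved the same way. Pearson's r of the log2 fold changes over the 76 pairs was 0.549 in Lyz2-Cre and 0.574 in Hdac3f/f cells. This is a description across genes that share libraries and chromosomal position, with no test.

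Pairs that rose together include known inflammatory genes. Ptgs2os2 lies 50.81 kb from Ptgs2, the inducible cyclooxygenase, which had 1727, 1830.2 and 1333 CPM with LPS and 1.89, 1.78 and 1.79 CPM without it in Lyz2-Cre libraries (log2 fold change 9.80 ± 0.52, adjusted p = 8.25e-09). Gm34643 lies 22.52 kb from Acod1, the enzyme that makes itaconate, and the interaction was called for both: Acod1 read -1.91 ± 0.23 (adjusted p = 0.000783). With LPS alone the pair parted, as Acod1 was lower in Lyz2-Cre cells, at 3274 ± 403 CPM against 5658 ± 656 CPM in Hdac3f/f cells, while Gm34643 was not called. Gm7160 starts 124 bases from Zcchc2 on the other strand, and that pair shared the interaction too, with Zcchc2 at -0.93 ± 0.13 (adjusted p = 0.00178). AI504432 lies 1.43 kb downstream of the potassium channel gene Kcna3 on the same strand, where Kcna3 rose by 3.06 ± 0.33 in Lyz2-Cre and 3.60 ± 0.35 in Hdac3f/f cells.

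Pairs that fell together include Gm15326 with Map3k1, a kinase of the MAP kinase cascade, and Gm43672 with Tbl1xr1, which encodes a subunit of the corepressor complexes that hold Hdac3. Gm43672 starts 510 bases from Tbl1xr1 on the other strand, and Tbl1xr1 had 33.1, 30.4 and 28.3 CPM with LPS and 73.5, 72.02 and 60.2 CPM without it in Lyz2-Cre libraries, and 16.95, 10.7 and 12.99 CPM and 44.8, 33.8 and 31.9 CPM in Hdac3f/f libraries. It was higher in Lyz2-Cre than in Hdac3f/f cells by 1.17 ± 0.18 with LPS (adjusted p = 0.000602), where Gm43672 was not called, and by 0.90 ± 0.17 without LPS (adjusted p = 0.00603), where Gm43672 was higher as well. Among pairs that moved apart, Gm14005 rose while Bcl2l11, 15.77 kb away, fell: Lyz2-Cre cells averaged 47.7 ± 3.93 CPM of Bcl2l11 with LPS and 128 ± 1.76 CPM without it, and Hdac3f/f cells 50.7 ± 1.81 CPM with LPS and 122 ± 3.53 CPM without it. Neat1 fell in Hdac3f/f cells where its neighbour Frmd8 rose, by 0.99 ± 0.13 (adjusted p = 2.06e-05). Between genotypes both partners were called in 6 of the 76 pairs (7.89%) with LPS and 4 (5.26%) without it. Among the coding pairs both were called in 13.2% with LPS and 2.17% without it. The called lincRNA pairs all moved the same way, as did 74.4% and 86.0% of the called coding pairs. With LPS the called lincRNA pairs were Gm32089 with Scamp1, Gm15326 with Map3k1, Tmem250-ps with Nacc2, Gm38399 with Nav1, 2310001H17Rik with Clec2d and Gm26532 with Zswim4. The lincRNA's call with LPS ended for Tmem250-ps without LPS-treated Lyz2-Cre replicate 1, 2 or 3 or LPS-treated Hdac3f/f replicate 1 or 3 (adjusted p = 0.0583 to 0.109). It ended for Gm26532 without LPS-treated Lyz2-Cre replicate 1, 2 or 3 or LPS-treated Hdac3f/f replicate 2 or 3 (adjusted p = 0.0509 to 0.155) and for 2310001H17Rik without LPS-treated Lyz2-Cre replicate 1 or 2 or LPS-treated Hdac3f/f replicate 2 (adjusted p = 0.0547 to 0.0581). Without LPS they were Gm34643 with Acod1, Gm43672 with Tbl1xr1, 1110002J07Rik with Reep3 and Gm38399 with Nav1. Gm38399 and Nav1, called lower in both, overlap on 1 strand and may share reads.

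**Figure D5:**
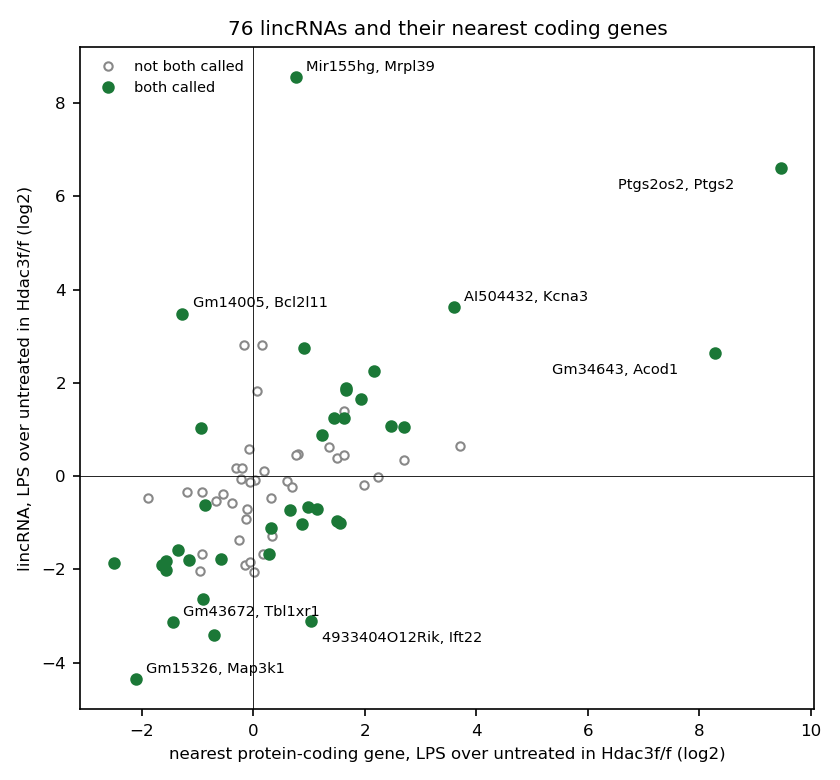
Log2 fold change of LPS-treated over untreated Hdac3f/f libraries for 76 lincRNAs (y axis) and the nearest protein-coding gene within 100 kb (x axis); filled points mark the 37 pairs with both partners called. Ptgs2os2 with Ptgs2 lies at the upper right and Gm14005 with Bcl2l11 at the upper left, where the lincRNA rose and the coding gene fell.

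Of the 102 members, 83 (81.4%) were called in at least 1 of the 5 comparisons and 19 in none, where 76.1% of all tested genes were called in at least 1. Those 19 include 1810058I24Rik, with means of 37.2 to 43.3 CPM in the 4 groups, and Snhg6. Gm10076 (chromosome 14), a single-exon gene of 384 bases, also passed no test but varied most within groups: it had 27.8, 9.07 and 28.03 CPM in LPS-treated Lyz2-Cre, 30.4, 9.56 and 9.05 CPM in untreated Lyz2-Cre, 6.11, 8.497 and 23.3 CPM in LPS-treated Hdac3f/f and 16.6, 27.5 and 26.9 CPM in untreated Hdac3f/f libraries. The ranges of all 4 groups overlapped.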

How the data were processed

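RNA from 12 libraries was sequenced. The authors deposited raw read counts per gene, with gene lengths, coordinates and biotypes; reads were aligned to mm10 with TopHat2, per the submitters' processing notes, and the counting tool, annotation and strand setting are not given in the sources used here. The counts were used as deposited. Of 54532 genes, 14286 passed edgeR's filterByExpr over the 4 groups. edgeR 4.0.16 (R 4.3.3) fitted 1 quasi-likelihood model to all 12 libraries with TMM scaling and 1 coefficient per group, and 5 contrasts were tested with Benjamini-Hochberg adjustment over all 14286 genes. DESeq2 1.42.0 was an alternative. SE values derive from the log2 fold change and the F statistic. The fitting code was tested on simulated counts. Averaged over the tested genes, the chi-square statistic of a pair of replicates was 8.15 to 45.0, above sampling noise. This average does not describe each gene. Each library was counted as 1 replicate, though this spread does not show whether the libraries come from separate animals.

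The members and lists were chosen with earlier results of these data known. Named genes are the members of the role lists, the 8 largest non-overlapping rises and falls per comparison, the 5 highest levels per kilobase, the members called in the interaction, and their nearest coding genes within 100 kb. Exons come from GENCODE M21, overlaps and nearest genes from the coordinates of the deposited table, and sequences from RefSeq. Intervals and counts at 0 cover counting error only.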

Additional observations from a re-analysis of the deposited data

Results flagged for a closer look

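For 5 lincRNAs the LPS response differed between genotypes by a test of the difference itself, the interaction in edgeR's quasi-likelihood test, with n = 3 libraries per group. The response was smaller in Lyz2-Cre than in Hdac3f/f cells for all 5. They are 4.90% of the members, beside 5.54% of all tested genes whose interaction was called below 0. The log2 difference was -2.82 ± 0.77 for Mir155hg (SE, adjusted p = 0.0419), -1.71 ± 0.28 for AW112010 (adjusted p = 0.00386) and -1.13 ± 0.29 for Gm7160 (adjusted p = 0.0334). It was -1.06 ± 0.21 for Gm34643 (adjusted p = 0.00981) and -1.06 ± 0.30 for 1110002J07Rik (adjusted p = 0.0491). AW112010 and Gm34643 were called in all 17 other settings tried, and Mir155hg, Gm7160 and 1110002J07Rik in 6, 6 and 5 of them. Over those settings the adjusted p ran from 2.47e-09 to 0.018 for AW112010, from 0.000337 to 0.0409 for Gm34643, from 0.000941 to 0.11 for Mir155hg, from 0.00477 to 0.0957 for Gm7160 and from 0.00568 to 0.134 for 1110002J07Rik. Without LPS, AW112010, Gm34643 and 1110002J07Rik were higher in Lyz2-Cre cells, and with LPS none of these 3 was called between genotypes. The stromal markers and Lyz2 differ between the same genotypes, and their part was not tested.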

How the results depend on the processing

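Leaving out 1 library at a time gave 18 to 23 higher and 34 to 51 lower after LPS in Lyz2-Cre cells, and 26 to 29 higher and 38 to 44 lower in Hdac3f/f cells. Between genotypes it gave 3 to 22 higher and 4 to 10 lower with LPS, 5 to 16 higher and 1 to 4 lower without LPS, and 0 to 2 above and 2 to 9 below 0 for the interaction. With all long noncoding biotypes (280 genes) 68 were higher and 97 lower after LPS in Lyz2-Cre cells, 87 higher and 93 lower in Hdac3f/f cells, 22 higher and 40 lower between genotypes with LPS, 21 higher and 11 lower without LPS, and 4 above and 18 below 0 for the interaction. With at least 720 counts (54 lincRNAs) 25 were lower after LPS in Lyz2-Cre and 22 in Hdac3f/f cells, and 4 were higher between genotypes with LPS; with at least 180 counts (173 lincRNAs) 77 were lower after LPS in Lyz2-Cre cells and 14 lower between genotypes with LPS. Without the 27 members that entered through 1 group, a setting added after the data were seen, 32 were lower after LPS in Lyz2-Cre and 29 in Hdac3f/f cells, and 4 were higher between genotypes with LPS. These 4 settings change the number of lincRNAs counted. Library totals gave 17 higher and 3 lower between genotypes with LPS, and 2 above and 2 below 0 for the interaction. Without a filter on low counts 14 were higher between genotypes with LPS, and the interaction was called above 0 for 1 and below 0 for 8. A fit to only the 2 groups compared gave 4 lower between genotypes with LPS, and DESeq2 called 14 interactions below 0; for these the cause was not tested. With the neighbour limit at 10 kb, both partners were called in 22 pairs after LPS in Lyz2-Cre cells, 23 in Hdac3f/f cells, 3 between genotypes with LPS, 2 without LPS and 1 in the interaction, where fewer pairs enter. Other settings left the counts within 1.5 times.

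Of 1541 recomputed values for 86 named results over 18 settings, 1370 kept direction and call, 169 kept direction and lost the call, and 2 reversed. Both reversals were of Gm36161 with library totals, at -0.047 (adjusted p = 0.752) in Lyz2-Cre and -0.17 (adjusted p = 0.23) in Hdac3f/f cells.

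Replicate numbers recur in every group, and 5 of 18 same-numbered pairs correlated above 0.1 (range -0.404 to 0.217). These 18 include pairs across genotypes. Between untreated and LPS-treated libraries, same-numbered pairs read 0.134, 0.069 and 0.011 in Lyz2-Cre and 0.197, 0.096 and 0.003 in Hdac3f/f cells. Pairs of unlike number ran from -0.118 to 0.090 in Lyz2-Cre and from -0.357 to 0.364 in Hdac3f/f cells. With 3 libraries per group these values cannot show whether the numbers pair the libraries. With the replicate number as a block the counts were 22 higher and 50 lower after LPS in Lyz2-Cre cells, 28 higher and 45 lower in Hdac3f/f cells, 11 higher and 8 lower between genotypes with LPS, 12 higher and 3 lower without LPS, and 0 above and 4 below 0 for the interaction. Of the 5 interaction calls 3 were shared; Gm7160 (adjusted p = 0.0507) and 1110002J07Rik (adjusted p = 0.0688) lost theirs.

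Depth limits the members with few reads: 75 of 102 averaged under 10 CPM, and Mir155hg, Ptgs2os2 and Gm5086 had 6 counts or fewer in a whole group. With 3 libraries per group, genotype counts moved with single libraries. The strand setting of the counting is not given in the sources used here, so values of overlapping genes are uncertain.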
